A study of Mus musculus with 2 samples.

Results

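The maturation of neutrophils was followed over 3 classes of cells that the deposited annotation calls Gstm1/CD63, Fcnb and Ltf, each named after a gene. Members were all cells that carry 1 of these 3 class names, which gave 2047 of 14795 cells. Control held 851 of them (621 Gstm1/CD63, 180 Fcnb and 50 Ltf cells), and the library labelled Runx1 KO held 1196 (657, 318 and 221). The comparison from Gstm1/CD63 to Fcnb is called the first step and that from Fcnb to Ltf the second step. Both were read within each library on UMIs (unique molecular identifiers, 1 per captured transcript) summed over the cells of a class and given as CPM, the count scaled to a fixed total for every sum.

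All cells came from marrow of C57BL/6 mice, sorted as Lineage-, c-Kit+ and Sca1-, and were run on the 10x Genomics 3′ kit. Control pooled a Runx1f/f mouse with a Runx1f/- mouse, so a single germline mutant allele was present in part of the control cells, while for the library labelled Runx1 KO the sources used here give neither Cre nor the number of mice, and ages are given for neither. A further label describes embryos as the source, and the marrow named in the tissue and extraction labels was followed. With 1 library per genotype there is no spread between animals: no p-value is given, a gene is said to rise or fall when its log2 ratio reached 1 in size after adding a pseudocount of 10 CPM (2-fold), and every interval is a 95% interval that covers counting error only.

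Neutrophils form from marrow progenitors through promyelocytes, which make the azurophil (primary) granules, then myelocytes, which divide and make the specific (secondary) granules, and then metamyelocytes and band cells, which stop dividing, make gelatinase (tertiary) granules and bend their nucleus. Granule proteins are sorted by the time at which they are made, so the order of granule transcripts serves as a clock of the lineage. The C/EBP transcription factors drive much of this programme, C/EBPα in early and C/EBPε in later cells, and Runx1 acts with them in early granulocyte progenitors.

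The authors named the classes after genes measured in these same cells, and the sources used here do not state how cells were assigned, so a difference between classes is a description and has no test. Depth was similar in the first 2 classes and lower in the third: the median cell held 28810 and 26825 UMIs in the Gstm1/CD63 class of Control and of the library labelled Runx1 KO, 26072.5 and 23662 in the Fcnb class, and 11545 and 9352 in the Ltf class. The sums held from 689973 UMIs (Ltf class of Control) to 18036151 (Gstm1/CD63 class of Control). Of 13 barcode sequences found in both libraries, 0 belonged to the 3 classes in both. Runx1 itself stood at 78.8, 56.1 and 78.3 CPM over the 3 classes of Control and was higher in the library labelled Runx1 KO, at 239, 130.5 and 121 CPM. Total 3′ UMIs of the gene therefore did not mark its loss, the sources used here do not give the deleted exons, and the label is used as a label only.

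Marker levels set the Ltf class apart as the latest of the 3, with a caveat on the names of the other 2. A list of neutrophil progenitor genes (Elane, Mpo, Prtn3, Ctsg, Ms4a3, Gstm1, Fcnb, Cebpe and Gfi1) summed to 27124, 38399.9 and 3629 CPM over the 3 classes of Control and to 25092, 39616 and 2372 CPM in the library labelled Runx1 KO. A list of mature genes (Ltf, Camp, Ngp, S100a8, S100a9, Retnlg, Ly6g, Cxcr2, Mmp8 and Mmp9) summed to 52.6, 2557 and 352325 CPM in Control and to 119, 1571 and 347779 CPM in the library labelled Runx1 KO. In cells of the Car1 class, taken as cells outside this lineage to show the level of free RNA, the mature list stood at 32.6 and 166 CPM. The progenitor list was highest in the Fcnb class and so did not order the first 2 classes. The mature list rose between them, but most Fcnb-class UMIs of its members Camp and S100a9 came from few cells, as given below. Both lists hold class-naming genes (Gstm1, Fcnb and Ltf). Gstm1, a glutathione transferase, was high in the first 2 classes and Ltf (lactoferrin) in the third. The genes that name the Gstm1/CD63 class, Gstm1 and Cd63, were both higher in the Fcnb class. Cd63 stood at 737, 958 and 454 CPM in Control and at 383, 411 and 147 CPM in the library labelled Runx1 KO. Fcnb, the ficolin B gene after which the middle class is named, was not at its highest there: it stood at 1.55, 32.4 and 525 CPM in Control and at 0.39, 12.4 and 296 CPM in the library labelled Runx1 KO. In the Fcnb class 30% and 10.1% of cells had a UMI of it, against 48% and 36.2% in the Ltf class and 0.136% and 0.167% in the Car1 class. Thinned to 2000 UMIs a cell, the shares were 5.56% and 1.26% in the Fcnb class and 30.6% and 22.7% in the Ltf class.

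Upstream sequences of the genes that rose most into the Ltf class are shown because the core of the site bound by C/EBP factors recurs in them. The core was searched as TTGCNNAA on both strands in the 300 bases from 250 before to 50 after the transcript start, in the RefSeq table for GRCm38.p6. Among the 10 genes with the highest second step in both libraries, 5 of 10 held it (50%), against 10.75% of 27025 promoters in the table. Of the 10 lowest, 9 were matched and 2 held it (22.2%), both after or across the transcript start. At the first step it was in 1 of 8 matched genes among the highest and 0 of 8 among the lowest. The core of ETS sites (GAGGAA) was in 3 of the 10 highest and 5 of the 9 lowest second-step promoters, against 28.3% of all. The E2F core (TTNGCGC) was in 0 of both, against 6.47% of all, and these are too few promoters to read 0 as an absence. A match is a string of letters and not a bound site.

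The 250 bases before the start are printed 5′ to 3′ on the strand of the gene, with the matches in capitals. They lie at chr9:111019042-111019291, plus strand for Ltf, chr9:110419558-110419807, plus strand for Ngp, chr2:32387740-32387989, minus strand for Lcn2, chr3:90695722-90695971, minus strand for S100a9 and chr16:48872358-48872607, plus strand for Retnlg.
Ltf: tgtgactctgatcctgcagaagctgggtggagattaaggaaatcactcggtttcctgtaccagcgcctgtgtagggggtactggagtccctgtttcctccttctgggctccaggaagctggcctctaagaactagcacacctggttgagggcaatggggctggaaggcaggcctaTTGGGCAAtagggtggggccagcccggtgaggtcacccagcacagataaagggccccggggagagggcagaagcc
Ngp: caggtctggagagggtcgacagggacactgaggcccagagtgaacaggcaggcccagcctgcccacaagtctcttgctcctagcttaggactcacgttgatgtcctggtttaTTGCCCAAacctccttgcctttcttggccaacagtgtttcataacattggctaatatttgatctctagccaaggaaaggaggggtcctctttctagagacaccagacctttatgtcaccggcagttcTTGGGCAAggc
Lcn2: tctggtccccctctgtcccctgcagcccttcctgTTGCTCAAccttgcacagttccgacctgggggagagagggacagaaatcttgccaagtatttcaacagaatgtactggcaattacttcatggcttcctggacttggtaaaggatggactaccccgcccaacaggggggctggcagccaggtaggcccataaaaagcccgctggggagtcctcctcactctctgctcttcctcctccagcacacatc
S100a9: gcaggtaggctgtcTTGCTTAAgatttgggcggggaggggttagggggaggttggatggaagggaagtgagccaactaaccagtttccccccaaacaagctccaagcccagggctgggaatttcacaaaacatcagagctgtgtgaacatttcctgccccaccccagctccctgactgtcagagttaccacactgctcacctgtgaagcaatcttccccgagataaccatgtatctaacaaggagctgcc
Retnlg: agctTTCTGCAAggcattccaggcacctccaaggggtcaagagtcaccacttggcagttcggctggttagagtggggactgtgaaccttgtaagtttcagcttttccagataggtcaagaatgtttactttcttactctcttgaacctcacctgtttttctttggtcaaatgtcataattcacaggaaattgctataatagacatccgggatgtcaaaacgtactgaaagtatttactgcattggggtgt
Ngp was the gene with 2 matches, and the others had 1 each.

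**Figure D1:**
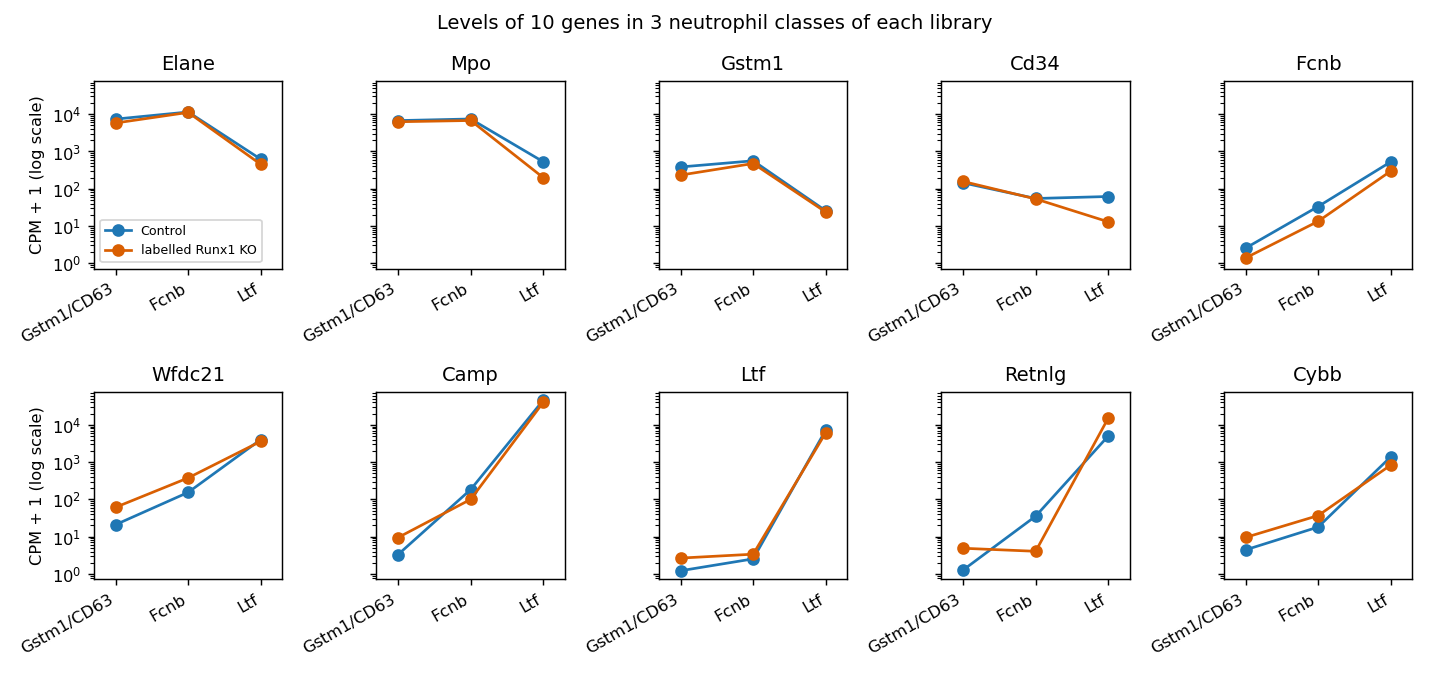
CPM plus 1 (log scale) of 10 genes in the Gstm1/CD63, Fcnb and Ltf classes of Control (blue) and the library labelled Runx1 KO (orange), 1 point per class and library. Elane, Mpo and Gstm1 stay high to the Fcnb class and drop in the Ltf class, while Camp, Ltf and Retnlg are far higher there than in the other 2 classes.

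The first step was small. Of 2798 measured genes (at least 50 CPM in 1 of the 4 sums and 100 UMIs over them), 12 rose in Control (0.429%) and 12 in the library labelled Runx1 KO (0.429%), while 6 (0.214%) and 14 (0.5%) fell. In both libraries 8 genes rose (0.286%) and 5 fell (0.179%). The median log2 ratio was -0.06 in each library. No ribosomal protein, ribosome biogenesis, folding, S phase or G2/M gene of the lists reached 2-fold, and the ribosome biogenesis list had medians of -0.32 and -0.33.

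Some first-step rises were spread over many cells. Wfdc21, a small whey acidic protein family member of neutrophils, rose from 20.1 to 154 CPM in Control, a ratio of 7.67 (6.74 to 8.73), and from 60.6 to 378 CPM in the library labelled Runx1 KO, 6.23 (5.81 to 6.69). It had a UMI in 71.7% and 89.3% of Fcnb-class cells, against 25.4% and 45.2% of Gstm1/CD63 cells and 1.31% and 2.66% of Car1 cells. Clec4a2, a C-type lectin receptor of myeloid cells, went from 23.2 to 116 CPM and from 21.9 to 97.9 CPM. The adhesion receptor Vcam1 rose 4.81-fold and 4.29-fold, G0s2, an inhibitor of triglyceride lipase, 3.82-fold and 3.87-fold, and the lectin Mgl2 2.76-fold and 3.04-fold. Vcam1 is also a member of the macrophage marker list, whose sum went from 13.1 to 46.4 CPM in Control and from 17.4 to 56.9 CPM in the library labelled Runx1 KO. Vcam1 itself made up 7.87 and 37.9 CPM of these sums in Control and 12.4 and 53.1 CPM in the library labelled Runx1 KO. Each of these 5 was above its Gstm1/CD63 level in both libraries, and the 5 cells with most UMIs held at most 24.2% of any of these Fcnb-class sums. Wfdc21, Clec4a2 and G0s2 rose again at the second step, whereas Mgl2 fell and Vcam1 fell in the library labelled Runx1 KO alone, with log2 ratios of -0.80 and -1.30.

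The main primary granule genes Elane, Prtn3, Ctsg and Mpo had their highest level of the 3 classes in the Fcnb class. Elane, the neutrophil elastase, went from 7389 to 11455 CPM in Control, a ratio of 1.55 (1.53 to 1.57), and from 5801 to 11152 CPM in the library labelled Runx1 KO, 1.92 (1.91 to 1.94). Prtn3 (proteinase 3) and Ctsg (cathepsin G) had ratios of 1.65 and 1.33 in Control and 1.76 and 1.61 in the library labelled Runx1 KO. Mpo (myeloperoxidase) was nearly level, with ratios of 1.10 and 1.08. Of 8 measured primary granule genes none rose 2-fold in Control and 1, the serine protease Prss57, in the library labelled Runx1 KO, from 124 to 294 CPM, and the list medians were 0.58 and 0.66. Gstm1 went from 383 to 560.4 CPM in Control and from 231 to 474 CPM in the library labelled Runx1 KO.

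The falls of the first step included Cd34 and Cpa3, while most measured progenitor genes did not reach 2-fold: 1 of 5 measured progenitor surface genes (Cd34) and 1 of 3 measured multipotent progenitor markers fell in each library. Cd34, a surface glycoprotein of early progenitors, fell from 143 to 53.7 CPM in Control (2.65-fold) and from 156 to 52.3 CPM in the library labelled Runx1 KO (2.98-fold). Cpa3, the mast cell and basophil carboxypeptidase, fell 7.37-fold and 8.14-fold. Fabp5, a fatty acid carrier, fell 2.81-fold and 2.75-fold, and the transcription factor Pou2f2 fell in both libraries, with log2 ratios of -1.05 and -1.03. Ifitm1, an interferon-inducible membrane protein that early progenitors also make, fell 7.05-fold in Control and 2.79-fold in the library labelled Runx1 KO. In the library labelled Runx1 KO alone 9 further genes passed the size rule, among them Apoe (log2 ratios -0.89 in Control and -1.51), the platelet integrin Itga2b (-0.89 and -1.21) and Klk8 (-0.92 and -1.05). The summed markers of basophils and mast cells, Cpa3 among them, went from 200.2 to 39.0 CPM in Control and from 190 to 31.7 CPM in the library labelled Runx1 KO. Those of megakaryocytes, Itga2b and Pf4 among them, went from 42.6 to 26.6 CPM and from 203 to 73.4 CPM. Both sums hold genes already counted in these falls and are not separate from them. A doublet caller marked 48 of 657 Gstm1/CD63 cells in the library labelled Runx1 KO and 23 of 621 in Control. Without the cells it marked, 8 of the 14 falls in the library labelled Runx1 KO were kept, Apoe among them, and Itga2b, Klk8, Pf4, Nrgn, Muc13 and Ctla2a no longer passed. The part of other lineages beyond that was not tested.

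The first-step rise of late granule genes rested on few cells. Camp, the cathelicidin of specific granules, stood at 2.33 and 183 CPM in the Gstm1/CD63 and Fcnb classes of Control and at 8.52 and 99.5 CPM in the library labelled Runx1 KO. The Car1 class held 3.18 CPM of it in Control and 11.7 CPM in the library labelled Runx1 KO. Its Gstm1/CD63 levels were therefore not above the level of free RNA. A single cell held 77.9% of the 832 Camp UMIs of the Fcnb class in Control and 85.7% of 748 in the library labelled Runx1 KO. The calgranulin S100a9, a subunit of calprotectin, went from 11.7 to 1019 CPM and from 32.9 to 438 CPM, with 97.0% and 83.1% of the Fcnb-class UMIs in 5 cells. Its partner S100a8 was spread more widely: 5 cells held 76.7% and 43.1%, and 33.3% and 40.3% of cells thinned to 2000 UMIs had one, against 4.99% and 10.4% in the Gstm1/CD63 class and 2.08% and 7.46% in the Car1 class.

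Cells of the Fcnb class with at least 1% of their UMIs from late genes (the secondary and tertiary granule, calgranulin and stefin lists) numbered 5 of 180 in Control (2.78%) and 11 of 318 in the library labelled Runx1 KO (3.46%). Without such cells, and without Ltf-class cells that had at least 0.1% from Mpo, Elane, Prtn3 and Ctsg, the Camp log2 ratio of the first step went from 3.97 to -0.03 in Control and from 2.56 to -0.09 in the library labelled Runx1 KO. The number of genes that rose went from 12 to 8 in Control and from 12 to 7 in the library labelled Runx1 KO; the 7 were Clec4a2, Gstm1, Mgl2, Prss57, S100a8, Vcam1 and Wfdc21. G0s2 kept log2 ratios of 1.28 and 1.30 but fell under the minimum of 50 CPM. Of 5 measured secondary granule genes 4 rose in Control and 3 in the library labelled Runx1 KO, and the list medians of 2.45 and 1.02 became 1.02 and 0.91. This definition removes late transcripts by construction.

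**Figure D2:**
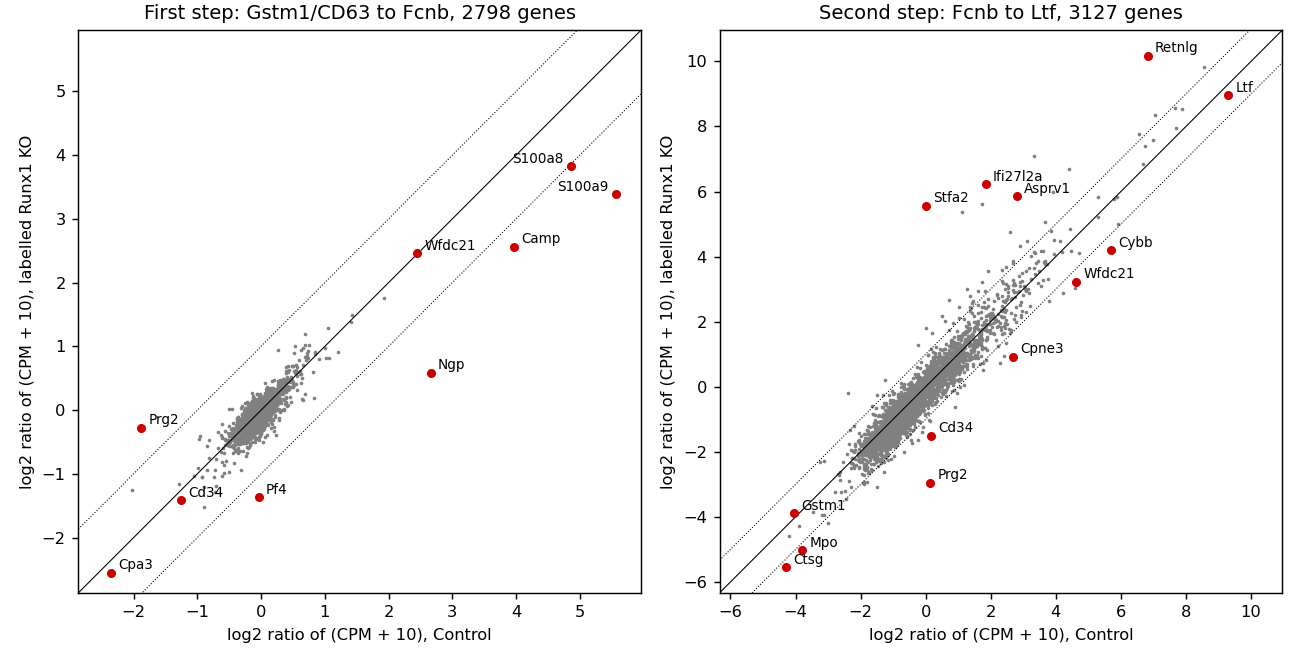
Log2 ratio of (CPM + 10) at the first step (left, 2798 genes) and the second step (right, 3127 genes), Control on the x axis and the library labelled Runx1 KO on the y axis, 1 point per gene. The solid line marks equal steps and the dotted lines a 2-fold difference between the libraries; 6 genes lie on or beyond them at the first step and 84 at the second.

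The second step changed far more of the transcriptome. Of 3127 measured genes, 438 rose in Control (14%) and 429 in the library labelled Runx1 KO (13.7%), while 876 (28%) and 1078 (34.5%) fell. Both libraries shared 362 rises (11.6%) and 787 falls (25.2%), and 0 genes rose 2-fold in one and fell 2-fold in the other. The median of all measured genes was -0.53 in Control and -0.61 in the library labelled Runx1 KO. The secondary and tertiary granule, calgranulin and stefin lists made up a median of 45.9% and 40.1% of the UMIs of a Ltf-class cell. With each step centred on that median, 702 and 734 genes rose and 299 and 419 fell. Directions below are on the CPM scale, and list medians are set against -0.53 and -0.61. A gene that passed the minimum of 50 CPM in the Ltf class alone (563 of 3127) could hardly fall, and 1 that passed in the Fcnb class alone (861) could hardly rise, so counts and medians over the measured members of a list describe them and support nothing. Beside them stand the counts over members that reached 50 CPM in a library of each class, called members expressed in both classes; of 1703 such genes in all, 110 (6.46%) and 116 (6.81%) rose and 443 (26%) and 537 (31.5%) fell.

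All 8 measured primary granule genes fell in both libraries, with medians of -3.51 and -4.11, and 7 of the 8 were expressed in both classes. Mpo went from 7438 to 529 CPM in Control (14.1-fold) and from 6772 to 198 CPM in the library labelled Runx1 KO (34.2-fold). Elane fell 18.5-fold and 24.8-fold, Prtn3 15.2-fold and 19.8-fold, and Ctsg 20.3-fold and 49.8-fold. What was left of them sat in few cells: 5 of 50 cells held 90.1% of the Mpo UMIs in the Ltf class of Control, and 5 of 221 held 73.0% in the library labelled Runx1 KO. Gstm1 fell 22.7-fold and 20.9-fold, alongside the cystatin Cst7 and Ms4a3, a membrane protein of granulocyte progenitors, which went from 1942 to 215 CPM and from 1899 to 115 CPM.

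All 13 measured genes of the secondary granule list and all 4 measured of 9 in the tertiary granule list rose in both libraries. Of these, 8 of the 13 and 3 of the 4 had passed the minimum through the Ltf class alone and could hardly fall. The other 5 and 1 (Slpi) were expressed in both classes and rose. The tertiary members were Mmp8, Mmp9, Cfp and Slpi. Mmp9 is the gelatinase, and whether the others are particular to tertiary granules was not tested. Ltf, the iron-binding lactoferrin, went from 1.54 to 7255 CPM in Control and from 2.39 to 6157 CPM in the library labelled Runx1 KO. Camp reached 45787 and 40219.9 CPM, Ngp (neutrophilic granule protein) 27975 and 19281 CPM, and Lcn2, the siderophore-binding lipocalin, 11786 and 14514 CPM. A UMI of Ltf was found in 78% and 64.7% of Ltf-class cells, and in 1.67% and 4.09% of Fcnb-class cells, while the Car1 class gave 1.18% and 3.16%. The collagenase Mmp8 rose to 788 and 547 CPM and the gelatinase Mmp9 to 554 and 580.1 CPM. The secondary granule medians were 4.63 and 4.76 and the tertiary ones 3.85 and 4.29.

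Calgranulins took a large share of the Ltf-class UMIs. S100a8 stood at 126628 CPM there in Control and 118945 CPM in the library labelled Runx1 KO, and S100a9 at 137546 and 146413 CPM. Of 8 measured genes of the calgranulin and stefin list, 7 rose in Control and 8 in the library labelled Runx1 KO, with medians of 3.62 and 6.42; 5 of the 8 passed through the Ltf class alone, and the 3 expressed in both classes rose in both libraries. Stefin A genes (Stfa2, Stfa2l1, Stfa3 and BC100530) are near-identical copies, so their 3′ UMIs may be shared out unevenly between them.

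Genes of the NADPH oxidase, the enzyme complex of the oxidative burst, rose with the granule genes. Of the 7 measured 6 rose in each library, among them all 5 expressed in both classes. Cybb, its catalytic subunit gp91phox, went from 17.2 to 1384 CPM in Control and from 35.9 to 832 CPM in the library labelled Runx1 KO. The cytosolic subunit Ncf1 reached 522 and 383 CPM. Among receptors, 10 of 13 measured rose in Control and 9 in the library labelled Runx1 KO, but 7 of the 13 passed through the Ltf class alone, and 3 of the 6 expressed in both classes rose in each library. Receptors that rose included the chemokine receptor Cxcr2 (151 and 197 CPM), the formyl peptide receptor Fpr2 (114 and 88.2) and the complement receptor C5ar1 (122 and 186). Adhesion and migration genes rose in 11 of 12 and 10 of 12 cases; 7 of the 12 passed through the Ltf class alone, and 4 and 3 of the other 5 rose. The list holds Retnlg, the annexin Anxa1 (2583 and 3300.1 CPM), the surface antigen Ly6g (625 and 308 CPM) and the integrin chains Itgam (328 and 227) and Itgb2 (287 and 271). There were 4 of 15 Toll-like receptor pathway genes that passed the minimum, 1 of them in both classes. The inhibitor Nfkbia rose in both libraries (log2 ratios 1.71 and 1.67), the kinase gene Irak1 fell (-1.12 and -1.01), and the list median was 0.53 in Control and -0.09 in the library labelled Runx1 KO, the latter turning to 0.52 with centring and 0.73 without the 20 most abundant genes in the total.

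Transcription factors split. The progenitor factors Myb and Cebpa fell, Myb from 594 to 151 CPM in Control and from 501 to 79.4 CPM in the library labelled Runx1 KO, and Cebpa from 81.2 to 10.1 and from 63.5 to 5.59 CPM. Mxd1, an antagonist of Myc, rose to 179.7 and 186 CPM and Klf6 to 129 and 132 CPM. In all, 4 of 17 measured rose in each library and 4 fell in Control against 7 in the library labelled Runx1 KO; the list medians of -0.23 and -0.10 turn to 0.29 and 0.51 with centring and to 0.39 and 0.61 without the 20 most abundant genes. Of the 8 expressed in both classes 2 rose and 1 fell in Control, and 1 rose and 3 fell in the library labelled Runx1 KO. Surface genes of progenitors fell in 2 of 5 cases in Control and 4 of 5 in the library labelled Runx1 KO, but 3 of the 5 passed through the Fcnb class alone, and 0 and 1 of the other 2 fell. Kit, the receptor the cells were sorted on, went from 77.7 to 34.8 CPM and from 65.0 to 12.8 CPM, and 26% and 7.69% of Ltf-class cells had a Kit UMI, against 79.4% and 71.1% of the deeper Fcnb-class cells. Thinned to 2000 UMIs, these shares were 2.04% and 0.909% against 12.8% and 11.9%. Transcripts do not give the surface level of c-Kit, so whether the Ltf-class cells lay within the sort gate was not tested.

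Genes of DNA replication (S phase) fell at the second step in 5 of 18 measured cases in Control, a share near the 28% of all measured genes, and in 13 of 18 in the library labelled Runx1 KO, where 34.5% of all fell, with medians of -0.76 and -1.25, which is -0.23 and -0.65 with centring. Of the 11 expressed in both classes, 1 fell in Control and 7 in the library labelled Runx1 KO. Genes of mitosis (G2/M) rose in 12 of 22 cases in Control and 8 of 22 in the library labelled Runx1 KO, but 12 of the 22 passed through the Ltf class alone. Of the 10 expressed in both classes 4 rose in Control and 2 in the library labelled Runx1 KO, and 0 fell. Mki67, a protein of dividing cells, went from 64.3 to 258 CPM and from 59.1 to 178 CPM, and the mitotic ubiquitin enzyme Ube2c reached 457 and 388 CPM. With every cell weighted alike the G2/M medians were 0.50 instead of 1.13 in Control and 0.24 instead of 0.82 in the library labelled Runx1 KO. Of 7 measured genes of the list called cell cycle exit 6 rose in Control and 7 in the library labelled Runx1 KO. But 6 of the 7 passed through the Ltf class alone. The member expressed in both classes was the cyclin Ccnd3, which reached 315 and 304 CPM and is not an inhibitor of the cycle. The Cdk inhibitor Cdkn2d reached 207 and 229 CPM. Genes of nuclear shape rose in 3 of 7 cases in Control and 2 of 7 in the library labelled Runx1 KO, with medians of 0.66 and 0.64, and 1 and 0 of the 5 expressed in both classes rose. They included Syne1, a linker of the nuclear envelope, and Padi4, a histone-modifying enzyme of neutrophils at 149 and 141 CPM.

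Biosynthetic genes fell by more than the median of all genes in both libraries. All 20 ribosomal protein genes fell, with medians of -1.73 and -1.88 (-1.21 and -1.27 with centring); Rps2 went from 5993 to 1255 CPM and from 6672 to 1284 CPM. All 20 were expressed in both classes. Ribosome biogenesis genes fell in 11 of 12 and 12 of 12 cases (7 of 7 in each library for those expressed in both classes), among them the nucleolar Npm1. Folding genes of the endoplasmic reticulum fell in 16 of 17 in each library (12 of 13 for those expressed in both classes), among them the chaperone Calr, from 1708 to 341 and from 1736 to 194 CPM. Respiratory chain genes fell in 10 of 17 cases in Control and 12 of 17 in the library labelled Runx1 KO, with medians of -1.04 and -1.10 (9 and 11 of the 16 expressed in both classes). Glycolysis and glycogen genes had medians of 0.30 and 0.26, with 3 and 4 of 15 entries higher and 0 and 2 lower (1 and 2 higher and 0 and 2 lower of 11 expressed in both classes). Their rises included the glucose transporter Slc2a3, from 3.08 to 100.0 and from 3.19 to 91.4 CPM, and the glycogen phosphorylase Pygl.

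Actin and motility genes rose in 9 of 15 cases in each library, and in 8 of the 14 expressed in both classes, including Actb and Tmsb4x, which reached 18596 and 22104 CPM. Of 6 measured interferon-stimulated genes 4 rose in Control and 3 in the library labelled Runx1 KO, and 1 of the 2 expressed in both classes rose in each. Ifitm6, a family member of myeloid cells, went from 3.08 to 1389.9 CPM and from 1.73 to 1964 CPM, while Bst2 fell in both. Of 4 measured immediate-early genes 3 and 4 rose, but 3 of them passed through the Ltf class alone, such as Klf2 at 107 and 151 CPM.

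**Figure D3:**
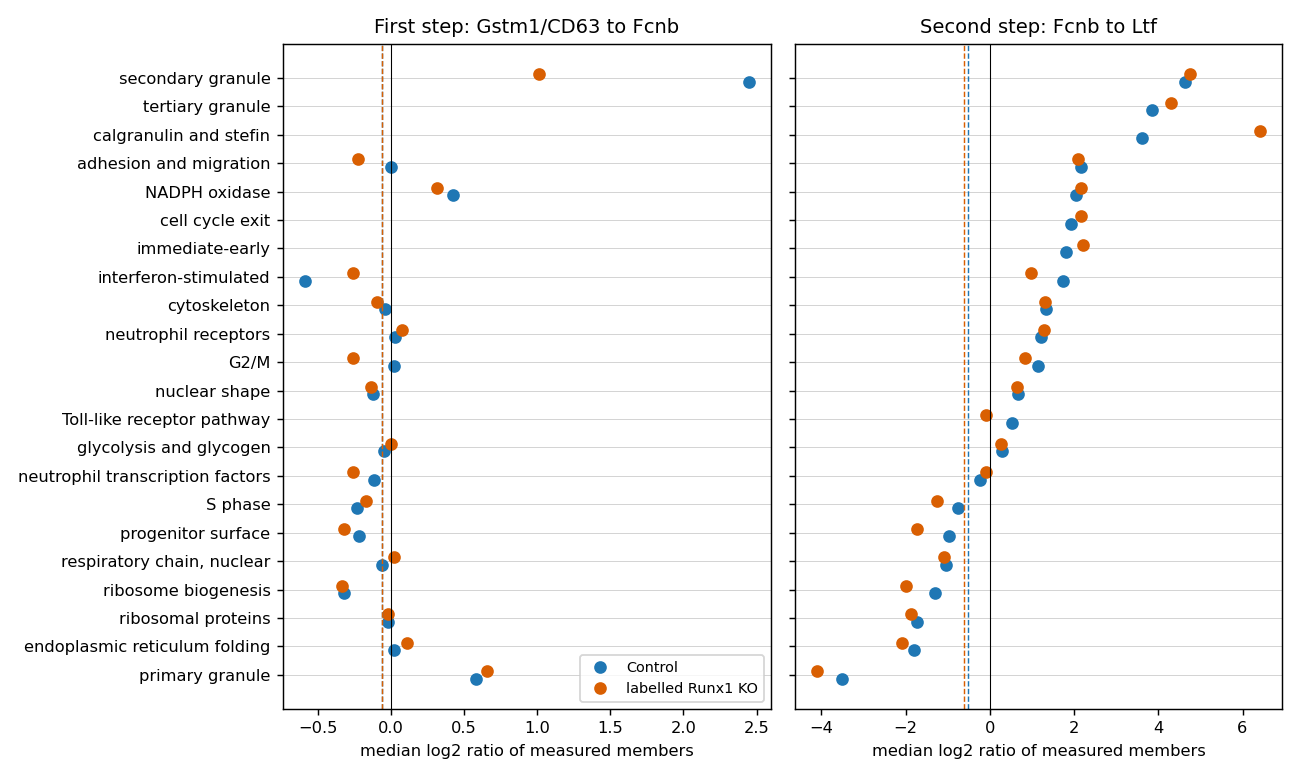
Median log2 ratio of the measured members of each gene list at the first step (left) and the second step (right), 1 point per list and library, for lists with at least 4 measured members; dashed lines mark the median of all measured genes in each library, and members that passed the minimum in 1 class alone are included. At the second step granule, oxidase and adhesion lists lie to the right of both lines and primary granule, folding and ribosomal lists to the left; the x axes differ.

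The first step differed 2-fold between the libraries for few genes, and those values rested on few cells. Its log2 ratio was higher in the library labelled Runx1 KO for 1 of 2798 genes (0.0357%), Prg2, the major basic protein of eosinophils, and lower for 5 (0.179%): S100a9, Ngp, Camp, Pf4 and S100a8. Across genes the log2 ratios of the 2 libraries had a Pearson r of 0.846, and 99.3% of genes differed by less than 0.5. Prg2 stood at 71.2 and 12.1 CPM in Control and at 99.7 and 80.2 CPM in the library labelled Runx1 KO, where 5 of 318 cells held 90.05% of its Fcnb-class UMIs. Pf4, a platelet chemokine, fell from 74.9 to 22.9 CPM in the library labelled Runx1 KO, with 69.7% of the Gstm1/CD63 UMIs in 5 of 657 cells. Without the mixed-stage cells described above, 0 genes were 2-fold lower.

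At the second step the log2 ratio was at least 1 higher in the library labelled Runx1 KO for 45 of 3127 genes (1.44%) and at least 1 lower for 39 (1.25%). A gene that passed the minimum through 1 library alone could hardly differ the other way. Such genes were not counted apart at either step, so these counts are descriptions. The 2 sets of log2 ratios had a Pearson r of 0.949 across genes, which share their cells and are not replicates, and 80.9% of genes differed by less than 0.5. All differences compare 50 Control cells with 221 cells in the Ltf class.

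Among genes with the higher second step in the library labelled Runx1 KO, Retnlg, a resistin-like protein of neutrophils, stood at 0.277, 34.6 and 5016 CPM in Control and at 3.90, 3.06 and 15129.9 CPM in the library labelled Runx1 KO, and the libraries differed 3.02-fold (2.91 to 3.12) in the Ltf class. Its second-step difference of 3.36 also carried the Fcnb class of Control, where 1 cell held 98.7% of 157 UMIs. Asprv1, a retroviral-like protease, was at 60.9 and 577 CPM in the Ltf class, a ratio of 9.47 (6.97 to 13.2), with a UMI in 22% and 79.6% of cells. Ifi27l2a, an interferon-inducible gene, was at 27.5 and 844 CPM, a ratio of 30.7 (19.6 to 51.0). Wfdc17, another whey acidic protein gene, was at 24.6 and 509.5 CPM, and was not among the genes that passed when Camp-rich cells alone were read. It differed 3.49-fold (1.62 to 8.97) in Camp-rich and 13.5-fold (7.29 to 28.1) in Camp-poor cells. Ceacam10 was at 53.6 and 261 CPM. Ifi27l2a and Wfdc17 were under the minimum of 50 CPM in the Ltf class of Control.

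Stefin A genes, inhibitors of cysteine proteases, differed in the same direction. Stfa2 had 0 UMIs in the Ltf class of Control and 1169 in the library labelled Runx1 KO, at least 107-fold higher when Control is set at 3 UMIs. Stfa3 had 8 and 1034 UMIs, and Stfa2l1 101 and 1582. In the library labelled Runx1 KO a UMI of Stfa2, Stfa3 and Stfa2l1 was found in 25.3%, 28.5% and 55.2% of Ltf-class cells. Of the calgranulin and stefin list, 6 of 8 members had the higher step in the library labelled Runx1 KO and 0 the lower. Over all 3127 measured genes the shares were 1.44% and 1.25%. The 6 were the near-identical Stfa2, Stfa2l1, Stfa3 and BC100530, and S100a9 and S100a6. Stfa2 and Stfa3 passed the minimum through the library labelled Runx1 KO alone and could hardly have the lower step, so the count supports nothing. For S100a9 the difference of 1.29 turned to -0.75 without the mixed-stage cells.

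Several genes had the lower second step in the library labelled Runx1 KO across many cells. Cpne3, a calcium-dependent phospholipid-binding copine, rose from 48.9 to 369.6 CPM in Control and stood at 45.5 and 94.96 CPM in the library labelled Runx1 KO. Zmpste24, the protease that trims prelamin A, rose from 40.5 to 238 CPM in Control and stood at 38.8 and 70.6 CPM in the library labelled Runx1 KO. Wfdc21, which also rose at the first step, rose on to 4036 CPM in Control and 3615 CPM in the library labelled Runx1 KO. Its second-step difference of -1.40 also carried the higher Fcnb-class level of the library labelled Runx1 KO given above. Cybb rose in both libraries but by 80.6-fold and 23.2-fold, and its Ltf-class ratio between the libraries was 0.601 (0.556 to 0.65). The proton channel Hvcn1, which balances the charge moved by the oxidase, was at 36.8 and 76.8 CPM in Control and at 21.3 and 10.4 CPM in the library labelled Runx1 KO. The cytoskeletal linker Vcl reached 125 and 37.1 CPM, and AA467197 243 and 75.4 CPM. For Cpne3, Zmpste24, Cybb, Hvcn1, Vcl and AA467197 the 5 highest cells held at most 41.5% of the Ltf-class UMIs in either library. Hvcn1 and Vcl each overlap 1 other coding gene, and use of strand in the counting is not stated.

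Other genes on that side rested on a handful of Control cells. Cd34 stood at 60.9 CPM in the Ltf class of Control and 12.0 CPM in the library labelled Runx1 KO, with 92.9% of 42 Control UMIs in 5 cells. Phgdh, the first enzyme of serine synthesis, stood at 76.8 and 21.9 CPM, with 94.3% in 5 cells. Mpo and Ctsg had step differences of -1.24 and -1.25, and 5 cells held 90.1% and 91.6% of their Control UMIs. Cells of the Ltf class with at least 0.1% of UMIs from Mpo, Elane, Prtn3 and Ctsg were 8 of 50 in Control (16%) and 19 of 221 in the library labelled Runx1 KO (8.60%). Without mixed-stage cells 34 of the 45 genes kept the higher step, and 25 of the 39 genes kept the lower step, among them Cpne3, Zmpste24, Cybb, Hvcn1, Vcl and AA467197, while Phgdh and Cd34 did not. Mpo and Ctsg lost it too, but the cells were removed by their share of these genes.

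The Ltf class was not 1 kind of cell, and the shares counted in the 2 libraries were not equal. Cells with at least 1% of their UMIs from Camp, Ngp and Ltf were 39 of 50 in Control (78%, exact binomial 95% interval 64.0 to 88.5%) and 129 of 221 in the library labelled Runx1 KO (58.4%, 51.6 to 64.9%); 2 and 15 cells lay near that limit, between 0.5 and 2%. The rest, 11 and 92 cells, had a median of 0% from these 3 genes and of 4.41% and 5.07% from Retnlg, against 0.0161% and 0.313% in the Camp-rich cells. Their median depth was 4211 and 4144.5 UMIs against 14769 and 13994. The 2 intervals for the Camp-rich share overlap and count cells of 1 library each, so a difference between genotypes was not tested.

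Transcripts of mitosis were found in the Camp-rich cells. At least 0.2% of UMIs came from G2/M genes in 17 of 39 Camp-rich Control cells (43.6%) and in 53 of 129 in the library labelled Runx1 KO (41.1%), and in 0 of 11 and 0 of 92 Camp-poor cells, where 3 cells would be 27.3% and 3.26%. A Mki67 UMI was present in 48.7% and 55.8% of Camp-rich cells and in 18.2% and 5.43% of the shallower Camp-poor cells. The receptor Cxcr2 went the other way, at 80.1 and 84.7 CPM in Camp-rich and 993 and 677 CPM in Camp-poor cells, as did Mmp8, at 671 and 368 against 2193 and 1314 CPM. A sum over the class mixes the 2 kinds of cell in different proportions.

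**Figure D4:**
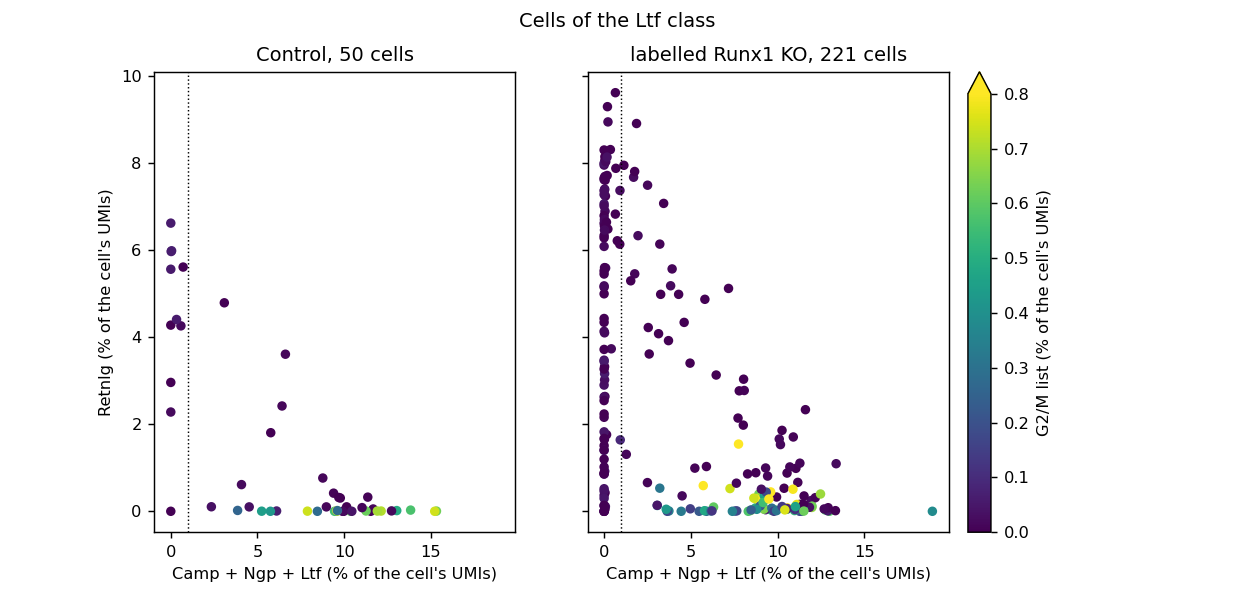
Share of each Ltf-class cell's UMIs from Camp, Ngp and Ltf together (x axis, %) and from Retnlg (y axis, %), 1 point per cell, 50 Control cells on the left and 221 cells of the library labelled Runx1 KO on the right; colour gives the share from G2/M genes, with values above 0.8% in the top colour, and the dotted line the 1% limit. Cells high in G2/M genes lie to the right of the line at low Retnlg, and Retnlg-high cells are more numerous on the right-hand plot.

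The differences between the libraries varied in size between the 2 kinds of cell. With the second step read on Camp-rich cells alone, 22 genes had the higher step in the library labelled Runx1 KO, 21 of them among the 45, and 48 the lower, 37 of them among the 39. Asprv1 was at 28.3 CPM in Camp-rich Control cells and 338 CPM in the library labelled Runx1 KO, a ratio of 11.9 (7.502 to 20.3), and differed 3.55-fold (2.37 to 5.57) in Camp-poor cells. Ifi27l2a differed 26.8-fold (12.9 to 66.9) and 14.2-fold (8.10 to 27.5), and Ceacam10 4.84-fold (3.41 to 7.12) and 4.07-fold (1.55 to 15.1). Retnlg differed 4.07-fold (3.84 to 4.31) in Camp-rich cells but 1.10-fold (1.06 to 1.15) in Camp-poor cells, and Stfa2l1 40.5-fold (15.7 to 149) on 4 Control UMIs and 1.23-fold (1.00 to 1.53). Its near-copies stayed higher in Camp-poor cells too: BC100530 differed 4.14-fold (3.06 to 5.74) there, Stfa2 had 0 and 733 UMIs and Stfa3 0 and 470. Junb and Selplg were among the 45 and not among the 22, yet their levels differed 2.90-fold (1.40 to 6.97) and 2.03-fold (1.39 to 3.04) in Camp-rich cells. The limit of 1% was set after the data were seen.

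On the lower side most UMIs came from Camp-rich cells. Cpne3 was at 396 and 106 CPM there, a ratio of 0.269 (0.223 to 0.324), Zmpste24 at 256 and 84.2 CPM, 0.329 (0.264 to 0.41), AA467197 at 258 and 86.2 CPM, 0.335 (0.269 to 0.416), and Hvcn1 at 83.3 and 12.8 CPM, 0.154 (0.0923 to 0.25). In Camp-poor Control cells these 4 genes had 3, 1, 4 and 0 UMIs, too few to show a difference there. Mpo and Ctsg, with 16 and 9 Control UMIs, had ratios of 0.203 (0.107 to 0.401) and 0.199 (0.083 to 0.512) in Camp-poor cells. Cybb was at 1473 and 968 CPM in Camp-rich cells, 0.657 (0.607 to 0.711). In Camp-poor cells it was at 319 and 252 CPM, 0.792 (0.475 to 1.40). Ly6g, whose step difference of -0.93 fell short of the limit, was at 625 and 308 CPM in Camp-rich and 619 and 309 CPM in Camp-poor cells. Specific granule genes went different ways in Camp-rich cells: the ratio of the library labelled Runx1 KO over Control was 0.781 (0.768 to 0.794) for Ngp, 1.32 (1.29 to 1.35) for Lcn2, 1.59 (1.55 to 1.64) for the chitinase-like Chil3 and 2.14 (1.65 to 2.81) for the olfactomedin Olfm4. Camp was at 49588 and 49452 CPM and Ltf at 7863 and 7570.4 CPM, but Camp, Ngp and Ltf defined those cells.

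**Figure D5:**
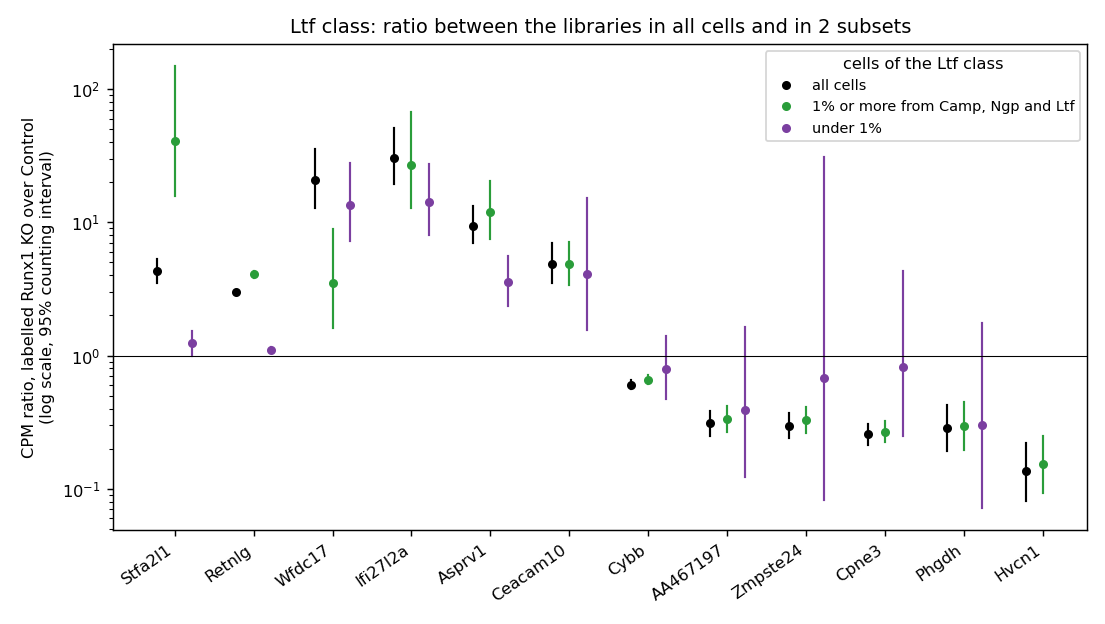
CPM ratio of the library labelled Runx1 KO over Control in the Ltf class (log scale) for 12 genes, over all cells (black), over cells with at least 1% of UMIs from Camp, Ngp and Ltf (green) and over the other cells (purple), with 95% counting intervals; Hvcn1 has no purple point because it had 0 UMIs in those cells of both libraries. Stfa2l1 and Retnlg lie far above 1 in the green points and near 1 in the purple ones, and Cpne3, Zmpste24 and Hvcn1 lie below 1 in the green points.

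Markers of other lineages were not level between the 3 classes, and some sums stood above those of the Car1 class. Monocyte markers summed to 452, 619 and 694 CPM over the 3 classes of Control and to 227, 268 and 405 CPM in the library labelled Runx1 KO. The Car1 class gave 42.1 and 26.2 CPM. Megakaryocyte markers summed to 42.6, 26.6 and 181 CPM and to 203, 73.4 and 463 CPM, against 288 and 715 CPM in the Car1 class, and 5 cells held 100% and 85.3% of the Pf4 UMIs of the Ltf class. Erythroid markers summed to 84.2, 79.7 and 72.5 CPM and to 46.2, 28.3 and 169 CPM, and eosinophil markers to 106, 26.0 and 106 CPM and to 157, 116 and 2.39 CPM. Prg2, a member of the eosinophil list, had 10 UMIs in the Ltf class of Control and 4 in the library labelled Runx1 KO. Macrophage markers stayed between 13.1 and 69.6 CPM in the 6 sums and dendritic cell markers between 37.5 and 185 CPM. Markers of multipotent progenitors went from 365 to 191 CPM between the first and the last class of Control and from 382 to 81.4 CPM in the library labelled Runx1 KO. Lymphoid markers, which include the granulocyte progenitor gene Nkg7, were highest in the Fcnb class. They summed to 863, 1156 and 151 CPM in Control and to 682, 1006 and 50.7 CPM in the library labelled Runx1 KO, against 201 and 110 CPM in the Car1 class. A doublet caller marked 0 of 50 and 8 of 221 Ltf-class cells; without the cells it marked, 120 genes instead of 39 had the lower second step in the library labelled Runx1 KO. The part of these cells in the differences was not tested beyond that.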

How the data were processed

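UMIs per gene and cell were deposited as raw counts in 1 matrix of 31053 genes and 14795 cells. Cell Ranger and mm10 are named per the submitters' processing notes; versions, filters, strand use and the making of the classes: not given in the sources used here. Per cell, the deposited annotation holds UMI and gene counts, the mitochondrial fraction, a size factor (a ratio), the library and 1 of 18 class names. Other deposited values used were these names and the gene symbols. The library called wild type there was taken as Control. Matrix sums matched the annotated UMIs in 14795 cells, no cell had under 1000 genes, and 31011 of 31053 identifiers matched GENCODE M21. The size factor was not used.

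UMIs were summed per class and library and given as CPM. A step is the log2 ratio of CPM plus a pseudocount of 10. Genes needed 50 CPM in 1 of the 4 sums of a step and 100 UMIs over the 4. Ratios carry exact conditional Poisson intervals and shares exact (Clopper-Pearson) binomial intervals, both at 95% and for counting error only; a ratio against 0 used 3 UMIs. Named were, per step, the 10 highest and lowest genes by the smaller change of both libraries, the 10 highest and lowest differences, the class-naming genes, Runx1, up to 4 members of each of 22 lists and any member whose step differed 2-fold. The steps were checked on simulated data with 200 changed genes. Alternatives changed the pseudocount, minimum, scaling, cell weights, mitochondrial limit (10%) and doublets (Scrublet in scanpy 1.11.5, run within each library). No doublets were left out of the main values. Analyses ran in Python 3.11.15 with numpy 2.4.6 and scipy 1.17.1. Members and gene lists were chosen with earlier results of these data known.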

Additional observations from a re-analysis of the deposited data

Results flagged for a closer look

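Hvcn1 had log2 ratios of opposite sign at the second step in the 2 libraries, and neither reached 2-fold. Its log2 ratio was 0.89 in Control, where the level went from 36.8 to 76.8 CPM, and -0.62 in the library labelled Runx1 KO, where it went from 21.3 to 10.4 CPM, a difference of -1.51. A Hvcn1 UMI was present in 46% of 50 Control cells of the Ltf class and in 8.14% of 221 cells of the library labelled Runx1 KO, and in 12.2% and 1.82% of cells thinned to 2000 UMIs. All measured genes had median second-step log2 ratios of -0.53 in Control and -0.61 in the library labelled Runx1 KO. In the latter Hvcn1 was therefore close to the median. With 1 library per genotype the Hvcn1 difference was not tested.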

How the results depend on the processing

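Counts of genes past 2-fold depended on the settings. Changes of sign were counted only for named genes and list medians that reached 2-fold in the main values, and these were few. Smaller values changed sign too, among them the second-step medians of all genes and of the transcription factor list. In the order first step Control higher and lower, the library labelled Runx1 KO higher and lower, difference higher and lower in the library labelled Runx1 KO, the main counts were 12, 6, 12, 14, 1 and 5. A minimum of 200 CPM gave 4, 0, 6, 1, 0 and 2, and a pseudocount of 50 CPM gave 6, 2, 5, 3, 0 and 1. Falls in Control were 16 with a pseudocount of 1 CPM, 10 with a minimum of 20 CPM, 10 with no minimum and 10 without called doublets. Falls in the library labelled Runx1 KO were 9 with centring. The higher differences were 2 with a pseudocount of 1 CPM, a minimum of 20 CPM, no minimum or without the 20 most abundant genes. The lower differences were 8 with a minimum of 20 CPM or none, 2 with every cell weighted alike, 3 without doublets and 0 without mixed-stage cells, where rises in the library labelled Runx1 KO were 7.

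For the second step the main counts in the same order were 438, 876, 429, 1078, 45 and 39. A minimum of 200 CPM gave 136, 343, 143, 372, 19 and 15, and a pseudocount of 50 CPM gave 234, 362, 246, 489, 18 and 9. No minimum gave 700 and 655 rises and 88 and 81 differences. Centring gave 702 and 734 rises and 299 and 419 falls. Leaving the 20 most abundant genes out of the total gave 934 and 852 rises, 426 and 707 falls and 81 lower differences, and moved the median of all genes to 0.12 and 0.000219. A pseudocount of 1 CPM gave 75 and 97 differences, a minimum of 20 CPM 59 lower ones, cells weighted alike 88 and 74, the absence of doublets 120 lower ones, and Camp-rich cells 22 higher ones.

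Some values that reached 2-fold in the main settings changed sign. Without mixed-stage cells the first-step log2 ratio was -0.0329 for Camp, -0.0601 for Lcn2 and -0.0357 for Ngp in Control and -0.0878 for Camp in the library labelled Runx1 KO, the Lcn2 first-step difference was 0.0589, and second-step differences were -0.89 for Ngp and -0.75 for S100a9, by construction of that subset. With Camp-rich cells the second step was -0.0411 for Dusp1 in Control and -0.85 for Ifitm1 and -0.31 for Junb in the library labelled Runx1 KO, and the cause was not tested. With no minimum the progenitor surface median was 0.0907 in the library labelled Runx1 KO, over more genes. The mixed-stage and Camp-rich alternatives were chosen after the data were seen. No replicate could be left out and no interval between animals exists, as each genotype had 1 library. No paired analysis was possible because each genotype had 1 library. Depth limits the Ltf class most: its Control sum held 689973 UMIs, so 3 UMIs there were 4.35 CPM.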

Other observations

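A smaller set of Ltf-class cells had neither pattern. Under 1% of their UMIs came from Camp, Ngp and Ltf and under 1% from Retnlg, and they numbered 1 of 50 in Control (2%) and 17 of 221 in the library labelled Runx1 KO (7.69%). In the library labelled Runx1 KO their median depth was 2378 UMIs, and S100a8 and S100a9 gave a median of 1.39% of UMIs, against 21.5% in the 75 Camp-poor cells with Retnlg at 1% or more and 32.5% in the Camp-rich cells. Against Camp-rich cells of the same library they were higher in Il1b, the cytokine interleukin-1 beta (2597 against 4.92 CPM on 105 UMIs), in the ferritin chain Fth1 (21862 against 900.1 CPM), in Ifi27l2a (6034 against 294 CPM) and in Csf3r, the receptor for granulocyte colony-stimulating factor (1385 against 62.5 CPM). These genes and this split were chosen after their values were seen. In these 17 cells, the Camp-poor cells with Retnlg and the Camp-rich cells, macrophage markers summed to 272, 106 and 36.4 CPM, monocyte progenitor markers to 717, 464 and 387 CPM, lymphoid markers to 49.5, 46.0 and 51.7 CPM and erythroid markers to 124, 154 and 173 CPM. The part of other cell types in this set was not tested.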
